A study of Arabidopsis thaliana with 5 samples.

Results

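The genes described here are the microRNA (miRNA) hairpin genes of Arabidopsis thaliana: every gene on chromosomes 1 to 5 that the annotation classes as a miRNA and names MIR plus a number, apart from MIR173, MIR390A, MIR390B, MIR161, MIR393A and MIR393B. The rule took 320 of the 326 such genes, out of 37899 annotated genes on those chromosomes. It used annotation alone and no read. The 320 genes form 211 families by name and lie 88, 53, 48, 55 and 76 to a chromosome, from 1 to 5. They are 59 to 689 bases long, with a median of 145.5 bases, and 123 of them overlap another annotated gene, 56 of these a protein-coding gene on the same strand.

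A plant miRNA gene is transcribed by RNA polymerase II into an RNA that folds back on itself. The nuclease DICER-LIKE1 (DCL1) cuts the base-paired stem into a short duplex, and 1 strand of it, the mature miRNA, is loaded into an ARGONAUTE protein, which it guides to matching messenger RNAs. RDR6 is an RNA-dependent RNA polymerase: it copies single-stranded transcripts into double-stranded RNA (dsRNA) that other Dicer proteins cut into short interfering RNAs, among them the trans-acting ones of the TAS genes. The miRNA hairpin is base-paired within a single molecule and needs no such copying. In flowers, miRNAs are known as repressors of transcription factors that time flowering and pattern the floral organs.

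All 5 libraries were made from unopened flower buds. The rdr6 dsRNA library came from the rdr6 mutant (allele rdr6-11 in the Col-0 background) after 1 round of ribosomal RNA depletion, and the Col-0 2X and Col-0 1X dsRNA libraries came from wild-type Col-0 after 2 rounds and 1 round. For all 3, RNase One, which degrades single-stranded RNA, was applied to leave base-paired RNA, which was then fragmented and sequenced. The rdr6 smRNA and Col-0 smRNA libraries hold small RNAs without that treatment. Per the methods each dsRNA library combined the RNA of several biological replicates before depletion, and each condition has 1 library. Every ratio below therefore has no replicate check, and the exact Audic–Claverie test used for calls compares 2 libraries by their counting error, not the genotypes.

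The hairpins carry 415 annotated mature products with 339 different sequences, of which 262 (77.3%) are 21 nt long and 56.6% begin with U. The mature miRNAs that the values below turn on are printed from the RefSeq reference (TAIR10.1), 5′ to 3′, with the seed, bases 2 to 8, in capitals. They are shown because they include the families with the most reads, those that target the silencing machinery, and those whose libraries differed most.
miR156a-5p: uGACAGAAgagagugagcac
miR156j: uGACAGAAgagagagagcac
miR157a-5p: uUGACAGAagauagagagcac
miR158a-3p: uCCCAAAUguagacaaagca
miR165a-3p: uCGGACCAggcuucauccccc
miR166a-3p: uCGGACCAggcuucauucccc
miR167a-5p: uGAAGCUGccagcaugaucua
miR172a: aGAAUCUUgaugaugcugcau
miR172c: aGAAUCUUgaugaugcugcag
miR168a-5p: uCGCUUGGugcaggucgggaa
miR162a-3p: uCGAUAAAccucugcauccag
miR403-3p: uUAGAUUCacgcacaaacucg
miR824-5p: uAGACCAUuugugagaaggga
miR159a: uUUGGAUUgaagggagcucua
miR159b-3p: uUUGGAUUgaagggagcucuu
miR319a: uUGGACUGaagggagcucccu
miR163: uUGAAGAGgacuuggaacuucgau
miR395a: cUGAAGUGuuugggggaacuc
miR399f: uGCCAAAGgagauuugcccgg
miR5652: uUGAAUGUgaaugaaucgggc
miR854a: gAUGAGGAuagggaggaggag
miR8167a: aGAUGUGGagaucguggggaug
miR8180: uGCGGUGCgggagaagugc
Products of several hairpins share a seed. GACAGAA stands in 11 products, those of the miR156 family and miR157d. AGCCAAG stands in 10 products of the miR169 family and CGGACCA in 9 of miR165 and miR166, whose mature forms differ by a single base near the 3′ end in the examples above. Members with one mature sequence also share its reads: a read was counted at each place it matched, and 160 members in rdr6 smRNA held mostly reads that also matched elsewhere. Family totals below count each read once.

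The libraries held 8193747 (rdr6 dsRNA), 13773151 (Col-0 2X), 10294611 (Col-0 1X), 11123274 (rdr6 smRNA) and 10674768 (Col-0 smRNA) mapped reads, to which all counts were scaled as reads per 1000000 mapped reads (rpm). The 8 TAS genes, which depend on RDR6, held 125 reads in rdr6 dsRNA and 640 in rdr6 smRNA, against 977 in Col-0 2X dsRNA, 6692 in Col-0 1X dsRNA and 62259 in Col-0 smRNA, which is the direction that the genotype labels give. The Col-0 2X count was far below that of Col-0 1X, in a deeper library. The RDR6 gene itself had 3 to 80 reads a library, too few to check them. Of the tissue markers, 7 flower genes held 604 to 1464 reads in the dsRNA libraries and 3 root genes held 12 to 21. The Col-0 2X library also differs in 2 other ways: the labels give it a 3′ adaptor with additional leading bases, and its deposited reads start at 15 nt, with 11.5% of them at 15 to 16 nt, where the other libraries start at 17 nt. In Col-0 2X against Col-0 1X the second round of depletion and the adaptor cannot be told apart. Without reads under 17 nt the median log2 ratio of the members tested was −2.34, against −2.36 with them.

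Col-0 1X dsRNA stood apart at the miRNA hairpins before any test. Its member reads were 47089, or 0.457% of the library, against 17836 (0.218%) in rdr6 dsRNA and 20634 (0.150%) in Col-0 2X. In the small RNA libraries the hairpins held 349008 reads (3.14%) in rdr6 and 455625 (4.27%) in Col-0. At least 1 read was found for 203 members in rdr6 dsRNA, 251 in Col-0 2X, 261 in Col-0 1X, 299 in rdr6 smRNA and 294 in Col-0 smRNA, with medians of 2, 4, 13, 74 and 83 reads a member in that order, and 9 members had no read in any library.

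What set Col-0 1X apart was reads of mature-miRNA size. Reads of 20 to 22 nt were 84.5% of its member reads, against 58.2% in rdr6 dsRNA and 31.7% in Col-0 2X, and 86.2% and 89.2% in rdr6 and Col-0 smRNA. Reads of 17 to 19 nt made up 28.7% in rdr6 dsRNA, 29.6% in Col-0 2X and 5.28% in Col-0 1X, those of 26 to 38 nt made up 9.24%, 23.1% and 3.84% in the same order, and those of 15 to 16 nt made up 11.2% in Col-0 2X. Member reads of 20 to 22 nt came to 1267 rpm in rdr6 dsRNA and 3864 rpm in Col-0 1X, a log2 ratio of −1.61, while all mapped reads of that length gave +0.85. The Col-0 2X value was 476 rpm, a log2 ratio to Col-0 1X of −3.02, with +0.67 for all mapped reads of that length. Reads of this length were thus fewer at the members and more numerous in the library at large in rdr6 and in Col-0 2X than in Col-0 1X. Reads of 17 to 19 nt at the members had log2 ratios to Col-0 1X of +1.37 in rdr6 and +0.87 in Col-0 2X, about equal to or below those of all mapped reads of that length (+1.39 and +1.4).

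**Figure D1:**
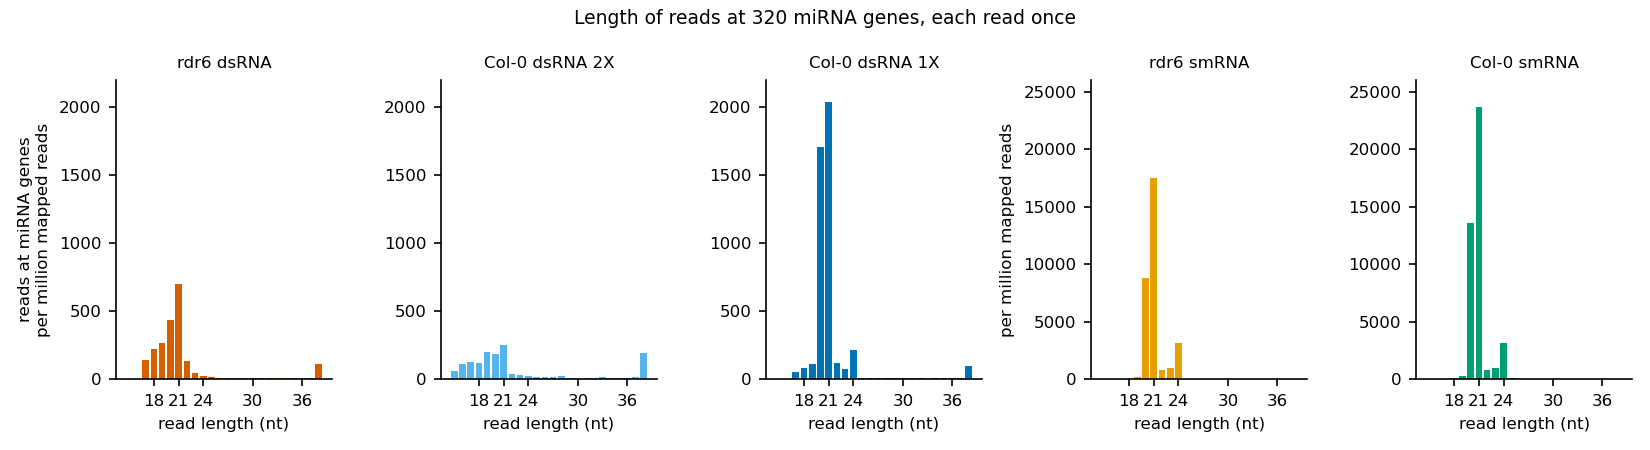
Reads at the miRNA genes in rpm (y axis, one scale for the 3 dsRNA libraries and another for the 2 smRNA libraries) by read length (x axis, nt), each read counted once. Reads of 20 to 22 nt are 84.5% of the bars' total in Col-0 1X dsRNA, against 58.2% in rdr6 dsRNA and 31.7% in Col-0 2X dsRNA, where shorter and longer reads take more.

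Most member reads lay on the strand of the hairpin: 86.9% in rdr6 dsRNA, 87.8% in Col-0 2X, 96.7% in Col-0 1X, 95.4% in rdr6 smRNA and 96.9% in Col-0 smRNA. Reads lying in an annotated mature product were 66.2%, 56.8%, 89.8%, 89.4% and 92.1% in that order of libraries. Of the 20 to 22 nt reads in a product, those that began exactly at its annotated 5′ end were 30.7%, 74.7%, 84.1%, 91.8% and 88.8%. The low rdr6 dsRNA value turned on 1 gene, MIR8180, with 4696 reads of 20 to 22 nt there: without it, an alternative chosen after the data were seen, the share was 61.1%, 76.3%, 88.2%, 91.8% and 88.9%. A 5′ U, the base that ARGONAUTE1 is known to prefer, began 29.9%, 48.8%, 83.2%, 90.1% and 91.0% of all member reads of 20 to 22 nt, and 50.5%, 49.2%, 87.3%, 90.2% and 91.0% without MIR8180.

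MIR156a shows the mature product most plainly. The commonest read of the hairpin was miR156a-5p itself, from its first to its last base, in all 5 libraries, with 460 of 485 reads in rdr6 dsRNA, 42 of 52 in Col-0 2X, 8768 of 8963 in Col-0 1X, 61576 of 62552 in rdr6 smRNA and 89688 of 91434 in Col-0 smRNA. The product lies at chr2:10676534-10676553 of TAIR10.1 on the minus strand. For other hairpins the commonest dsRNA read was cut short at its 3′ end. In Col-0 2X the commonest MIR158a read lacked the last base (649 of 1073 reads), whereas the whole miR158a-3p led in rdr6 dsRNA (815 reads) and Col-0 1X (6177 reads). The part of the product that the commonest read covered is printed in capitals, to show where such reads stopped (letters from the reference, since the files give positions and not bases).
miR158a-3p in Col-0 2X: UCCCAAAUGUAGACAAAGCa
miR167a-5p in Col-0 2X: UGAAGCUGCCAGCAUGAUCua
miR168a-5p in Col-0 2X: UCGCUUGGUGCAGGUCGGGaa
miR168a-5p in rdr6 dsRNA: ucGCUUGGUGCAGGUCGGGAa
miR172a in Col-0 2X: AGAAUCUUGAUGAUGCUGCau
miR172c in Col-0 2X: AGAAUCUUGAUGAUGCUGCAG
miR159a in rdr6 dsRNA, Col-0 2X and Col-0 1X: UUUGGAUUGAAGGGAGCucua
miR319a in Col-0 2X: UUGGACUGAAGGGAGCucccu
miR163 in Col-0 2X: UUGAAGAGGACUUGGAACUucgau
In Col-0 2X the shortened reads printed here thus kept the 5′ end. They lost A, UA, AA or AU from the 3′ end of miR158a, miR167a, miR168a and miR172a, while miR172c, which ends in AG, was whole. From miR159a, miR319a and miR163 they lost UCUA, UCCCU and UCGAU, so the lost bases were not A and U alone. In the same library the commonest miR168b-5p read, of a product with the miR168a-5p sequence, lacked only the last A. The commonest miR158b read lacked the first CC as well as the last A. The part of the library's own 3′ adaptor in these read ends was not tested.

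The miR156 family, which represses SPL (SQUAMOSA PROMOTER BINDING PROTEIN-LIKE) transcription factors and so holds plants in the juvenile phase, was the most abundant. Its 10 hairpins held 1088 reads in rdr6 dsRNA, 114 in Col-0 2X, 15735 in Col-0 1X, 118666 in rdr6 smRNA and 176047 in Col-0 smRNA, the last being 16492 rpm. Next in Col-0 smRNA came miR166 (7097 rpm) and miR165 (6295 rpm), which target the HD-ZIP III genes of leaf and organ polarity, miR157 (6079 rpm), a close relative of miR156, miR167 (4766 rpm), which targets auxin response factors of flower maturation, and miR158 (3599 rpm). miR165 and miR166 share most of their reads, since many match hairpins of both. The order in rdr6 smRNA was miR156 (10668 rpm), miR166 (4953 rpm), miR157 (4838 rpm), miR165 (4328 rpm), miR167 (3951 rpm) and miR158 (2330 rpm), so that only miR157 and miR165 changed places with each other. The 4 families from miR166 to miR167 lay within 2-fold of each other in both libraries.

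**Figure D2:**
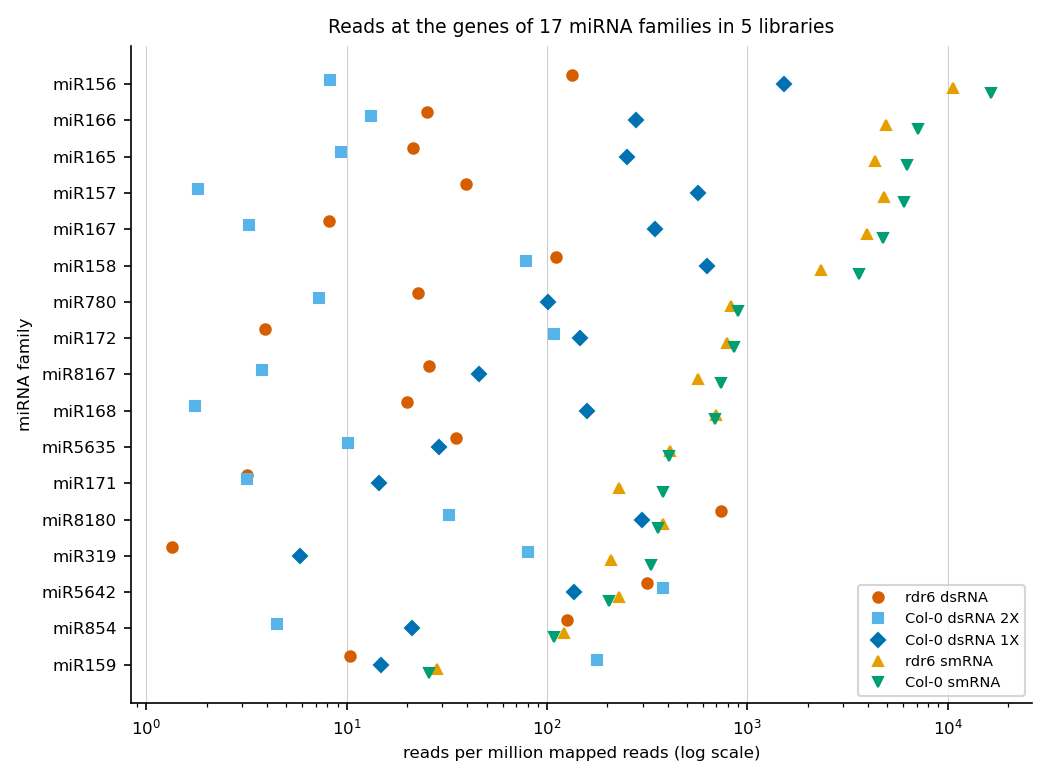
Levels in rpm (x axis, log scale) of 17 miRNA families (y axis) in the 5 libraries, the 14 highest in Col-0 smRNA and miR854, miR5642 and miR159, which were added after their values were seen. The miR156 to miR158 families lie far higher in Col-0 1X dsRNA than in rdr6 or Col-0 2X dsRNA, whereas miR8180, miR854 and miR5642 are higher in rdr6 than in Col-0 1X dsRNA.

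To ask whether base-paired RNA at the hairpins depended on RDR6, rdr6 dsRNA was compared with Col-0 1X dsRNA, which had the same single round of depletion. A gene was tested with at least 10 reads in the pair and called with a 2-fold difference and a one-sided Audic–Claverie p under 0.001. Of the 180 members tested, 102 (56.7%) were lower in rdr6, where 5.14% of all tested genes were, and 19 (10.6%) were higher, where 16.5% of all tested genes were. The median log2 ratio of the members was −2.14 with 0 read as 3 counts, and 142 of 180 were negative, against a median of 0.38 over all genes tested. The 102 had a median of 1.46 rpm in rdr6 dsRNA and 9.28 rpm in Col-0 1X.

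The lower members were led by the conserved families. MIR156j had 921 reads in rdr6 dsRNA and 14771 in Col-0 1X, a log2 ratio of −3.67, and MIR157a had 267 and 4467 reads (−3.74). MIR166a had 191 and 2812 reads (−3.55), and MIR158a had 905 and 6456 (−2.51). In each the Col-0 1X count was the highest of the 3 dsRNA libraries. MIR167a had 67 reads in rdr6 dsRNA, against 3539 in Col-0 1X (−5.39), and MIR172a, whose product represses AP2-like floral genes, had 22 against 1177 (−5.41). These, with MIR167b (65 against 3535 reads, −5.44), were among the lowest ratios. MIR824, whose product targets the MADS-box gene AGL16, had no read in rdr6 dsRNA and 50 in Col-0 1X, a log2 ratio of −3.73 or below with 3 counts as the limit of a count of 0.

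Grouped by the roles of their targets, the members that regulate flower and leaf development gave 59 tested genes, of which 52 were lower and 0 higher in rdr6 dsRNA, with a median log2 ratio of −3.62. The 5 members that target the silencing machinery were all lower: MIR168a and MIR168b (ARGONAUTE1), MIR162a and MIR162b (DCL1) and MIR403 (ARGONAUTE2), with a median of −2.99. MIR168a had a log2 ratio of −2.99, MIR162a, with 27 reads in rdr6 dsRNA and 125 in Col-0 1X, of −1.88, and MIR403, with 8 and 97, of −3.27. The 3 members known to be cut by DCL4 in place of DCL1, MIR822, MIR839 and MIR869, were lower too: they had 3, 12 and 2 reads in rdr6 dsRNA, against 30, 112 and 85 in Col-0 1X. Of the nutrient-responsive members, such as MIR395, MIR398 and MIR399, 9 were tested and 6 were lower. Over all 91 members of conserved families, 65 of 74 tested were lower and 0 higher (median −3.55), and of the other 229, 37 of 106 tested were lower and 19 higher (median −0.93). Of all tested genes 5.14% were lower and 16.5% higher, so the share of the other members that was higher lay near that of all genes. These lists were made with results of these data known.

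The 19 members that were higher in rdr6 dsRNA included none of a conserved family. MIR854a to MIR854e, which lie in annotated pseudogenes, had about the same counts, as they share their reads: MIR854a had 945 reads in rdr6 dsRNA, 44 in Col-0 2X and 199 in Col-0 1X, a log2 ratio of rdr6 to Col-0 1X of 2.58. MIR8180 had 6078, 456 and 3087 reads in the same libraries (1.31), MIR401 had 511, 33 and 186 (1.79), and MIR5642a had 2756, 5613 and 1520 (1.19). The largest called ratio was at MIR862, with 24, 30 and 1 reads (4.91, 95% exact counting interval 2.30 to 10.3), which was named after its values were seen. Of the MIR862 reads over all libraries, 26 of 57 matched both strands of the hairpin and were counted once on each. The interval takes each count as a separate read, so it can be too narrow. Scaled to depth, rdr6 held the most of the 3 dsRNA libraries for MIR854a, MIR8180, MIR401 and MIR862 (for MIR862, 2.93 rpm in rdr6 and 2.18 rpm in Col-0 2X), but not for MIR5642a. The rise of MIR8180 rested on reads that also match elsewhere: reads with a single location numbered 23 in rdr6 dsRNA and 23 in Col-0 1X.

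**Figure D3:**
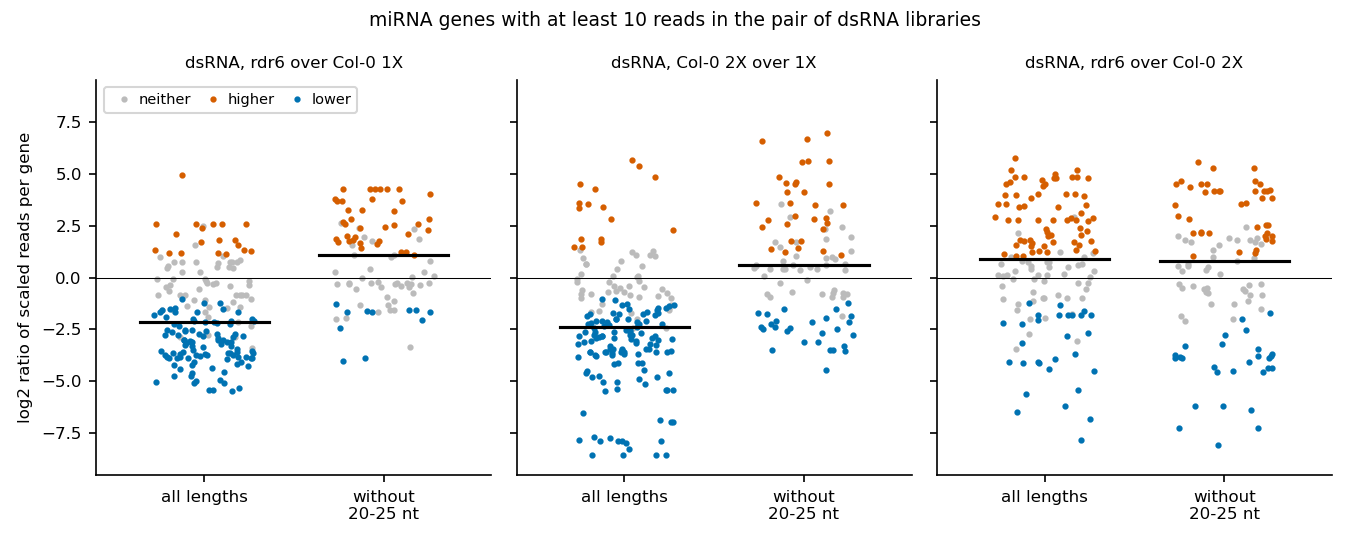
Log2 ratio of scaled reads for the miRNA genes with at least 10 reads in the pair, rdr6 to Col-0 1X dsRNA, Col-0 2X to Col-0 1X dsRNA and rdr6 to Col-0 2X dsRNA (panels from left to right), with all reads and without reads of 20 to 25 nt; each point is a gene, coloured by its call, and bars are medians. With all reads the medians are −2.14, −2.36 and 0.89, and without reads of 20 to 25 nt those of the comparisons with Col-0 1X are 1.09 and 0.60 (0.53 and 0.73 over all genes tested); each pair of panels shares a library.

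The lower calls were carried by reads of small-RNA size. Of the 102 lower members, 89 had over 90% of their Col-0 1X reads at 20 to 25 nt, and their median share was 97.6%. Without reads of 20 to 25 nt, in the genes and in the totals used for scaling, 92 members could be tested, of which 11 were lower in rdr6 dsRNA (3.64% of all tested genes were) and 38 higher (24.3% of all), and the median log2 ratio was 1.09, against 0.53 over all genes tested. The 11 were MIR156a to MIR156f (15 to 16 reads in rdr6 dsRNA, 64 to 67 in Col-0 1X), MIR167a, MIR167b and MIR167d (1 to 3 against 20 to 22), MIR472 (7 against 39) and MIR8175 (57 against 186). The 38 included MIR168a, with 110 reads of other lengths in rdr6 dsRNA and 47 in Col-0 1X (1.68), MIR168b (100 against 35, 1.97) and MIR8167a to MIR8167f (55 against 4, 4.24). For MIR168a, 103 of its rdr6 dsRNA reads were of 17 to 19 nt and 54 of 20 to 22 nt, against 34 and 1573 in Col-0 1X: the longer class was low in rdr6 and the shorter one high.

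The other wild-type library held few of these reads too. With Col-0 2X in place of Col-0 1X as the wild type, 144 members were tested, of which 66 were higher in rdr6 dsRNA (20.5% of all tested genes were) and 29 lower (13.4% of all), and the median log2 ratio was 0.89, against −0.44 over all genes tested. Of the 102 members lower against Col-0 1X, 19 were lower against Col-0 2X as well, and 15 of the 19 higher were higher against both. MIR156a changed side, at −3.88 against Col-0 1X and 3.97 against Col-0 2X, as did MIR168a at −2.99 and 3.52. MIR167a (−5.39 and 1.57), MIR166a (−3.55 and 1.02) and MIR403 (−3.27 and 1.16) also had opposite signs, whereas MIR158a came to 0.50 against Col-0 2X, within 2-fold. MIR172a, with 22 reads in rdr6 dsRNA and 92 in Col-0 2X, and MIR824, with 0 and 21, stayed lower in counts against both. The direction of the dsRNA comparison at these genes thus depended on which wild-type library was used.

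The same genes were compared in the smRNA libraries, where only 17 of 269 tested members (6.32%) were lower in rdr6, with 3.96% of all tested genes lower, and 0 were higher, with 0.692% of all tested genes higher. By the Audic–Claverie p alone, 35 members lay above Col-0 and 118 below it at an unadjusted p under 0.05. The median log2 ratio was −0.25, against 0.01 over all genes tested, and 242 of the 269 lay within 2-fold. MIR156a had 62552 reads in rdr6 and 91434 in Col-0 smRNA (−0.61), MIR166a 54548 and 75213 (−0.52), MIR158a 25739 and 38124 (−0.63), and MIR167a 43772 and 50687 (−0.27). MIR172a had 6575 and 6090 reads (0.05), and MIR168a 7736 and 7375 (0.01). The abundant families were therefore at or below the Col-0 level by less than 2-fold. Reads of 20 to 22 nt on all members gave 27033 rpm in rdr6 and 38079 rpm in Col-0 smRNA, a log2 ratio of −0.49, with −0.29 for all mapped reads of that length.

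**Figure D4:**
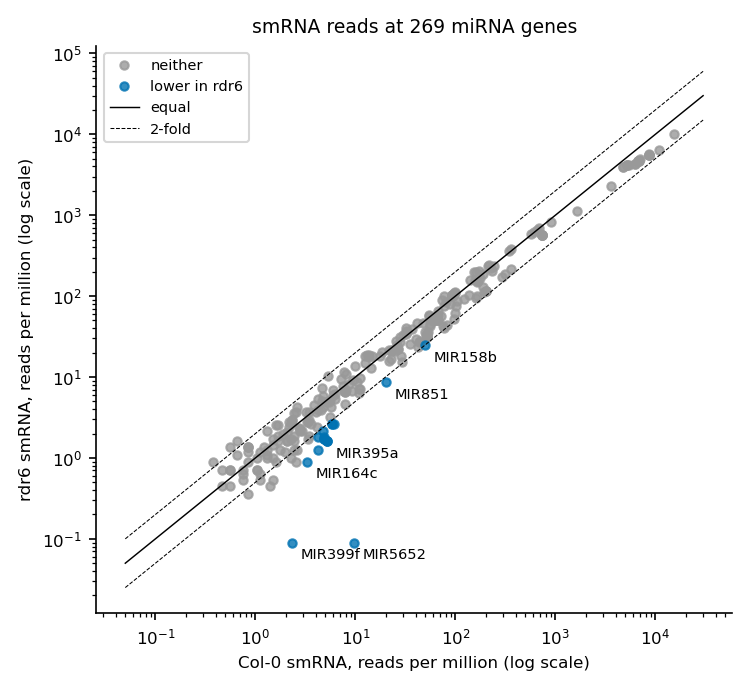
Level in rpm of each miRNA gene in rdr6 smRNA (y axis) against Col-0 smRNA (x axis), both on log scales; the lines mark equality and 2-fold differences. Of 269 tested genes 242 lie within 2-fold, 17 are called lower in rdr6, with MIR5652 farthest from the line, and 0 are called higher.

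MIR5652 showed the largest difference of the tested members in the smRNA libraries. It had 1 read in rdr6 and 104 in Col-0 smRNA, a log2 ratio of −6.76 with a 95% exact counting interval of −12.1 to −4.25 (exact one-sided Audic–Claverie p = 1.5e-31), and its dsRNA reads were 9 in rdr6, 14 in Col-0 2X and 29 in Col-0 1X. In Col-0 smRNA 99 of the 104 reads were of 20 to 22 nt, 35 lay on the opposite strand, and the commonest read, with 51 copies, lay outside the annotated miR5652 printed above. The gene lies opposite to the protein-coding gene AT1G63130, so that reads on its own strand are antisense to that gene.

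Nutrient-responsive members made up 10 of the other 16 that were lower in rdr6 smRNA, all of them miR395 or miR399 hairpins. In all, 18 nutrient-responsive members were tested, and the remaining 8 were called neither way, with log2 ratios up to 0.93. miR395, which targets ATP sulfurylases and a sulfate transporter and rises on sulfate starvation, had 20 reads in rdr6 and 56 in Col-0 smRNA over its 6 hairpins, and each hairpin was called: MIR395a had 18 and 56 (−1.70). miR399, which targets the ubiquitin-conjugating enzyme PHO2 in phosphate supply, had 31 and 96 reads over 6 hairpins. MIR399f had 1 and 25 reads (−4.70, interval −10.1 to −2.09), and MIR399a, MIR399b and MIR399c had 29 each in rdr6, against 62 to 65 in Col-0 smRNA. The MIR395 hairpins share most reads with each other, as do MIR399a, MIR399b and MIR399c, so that the calls within each of these sets are not independent. The remaining calls were MIR164c (10 and 35 reads, −1.87), whose product targets NAC genes of organ boundaries, MIR851 (97 and 216, −1.21), MIR158b (275 and 532, −1.01), MIR159c (14 and 45, −1.74), which had more reads in every dsRNA library, MIR852 (20 and 45) and MIR5020b (24 and 51). For MIR852, 33 of its 41 reads over all libraries matched both strands of the hairpin. Each of these was counted once on each strand, so its call rests on counts that are not independent. With each read divided among its locations, 5 members were lower in rdr6.

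Among the other role lists, 2 of the 64 flower and leaf members tested were lower in rdr6 smRNA (median log2 ratio −0.54), a share near the 3.96% of all tested genes. None of the 5 that target the silencing machinery was called by the Audic–Claverie test, with ratios from −0.35 for MIR403 to 0.03 for MIR168b. The DCL4-cut members had 170 (MIR822), 641 (MIR839) and 471 (MIR869) reads in rdr6 smRNA, against 311, 709 and 591 in Col-0 smRNA, and none was called. MIR824, at 0 reads in rdr6 dsRNA, had 447 reads in rdr6 and 343 in Col-0 smRNA (0.32).

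Between the wild-type dsRNA libraries, 123 of 186 tested members (66.1%) were lower in Col-0 2X, where 14.8% of all tested genes were, and 16 (8.60%) were higher, where 19.1% of all tested genes were. The median log2 ratio was −2.36, against 0.73 over all genes tested. This comparison and that of rdr6 dsRNA share the Col-0 1X library, so their values stand side by side and are not independent. MIR156j had 64 reads in Col-0 2X and 14771 in Col-0 1X (−8.27), MIR157a had 16 and 4467 (−8.55), and MIR168a had 24 and 1633 (−6.51). MIR166a had 158 and 2812 reads (−4.57), and MIR158a 1073 and 6456 (−3.01). The miR156 and miR157 hairpins were thus among the most reduced.

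The 16 members higher in Col-0 2X were largely of a few families. miR159 and miR319, which have related sequences and target MYB and TCP transcription factors, held 2439 and 1108 reads in Col-0 2X, against 153 and 60 in Col-0 1X. MIR319a had 751 and 11 reads (5.67), MIR319c 764 and 14 (5.35), and MIR159b had 1995 and 124 (3.59). Of the MIR159b reads in Col-0 2X, 1393 were of 17 to 19 nt and 324 shorter, and the commonest read at all 3 MIR159 hairpins was the first 17 bases of the mature product, shown above, with 36 reads in rdr6 dsRNA, 451 in Col-0 2X and 71 in Col-0 1X. In the smRNA libraries MIR159b had 101 reads in rdr6 and 102 in Col-0, so that the hairpin had far more reads in Col-0 2X dsRNA than in any of the other 4 libraries.

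MIR163, whose product targets methyltransferase genes, had 943 reads in Col-0 2X and 37 in Col-0 1X (4.25), and MIR172c had 1465 and 299 (1.87). MIR172a, with a mature product that differs from that of MIR172c only in its last base, had 92 and 1177 reads (−4.10), the opposite direction. In the smRNA libraries MIR172c had 1117 reads in rdr6 and 1745 in Col-0, and MIR172a had 6575 and 6090. As the sequences above show, the commonest MIR172c read in Col-0 2X was the whole product (1386 of 1465 reads), and the commonest MIR172a read there (34 of 92) stopped before the final AU. MIR5629, which lies in the NDL2 gene, had 114 reads in Col-0 2X and 3 in Col-0 1X (4.83, interval 3.24 to 7.13). Over all libraries 56 of its 139 reads matched both strands and were counted once on each, so this interval can be too narrow. Without reads of 20 to 25 nt, 32 of 102 tested members were higher (15.5% of all tested genes were) and 27 lower (2.85% of all), with a median log2 ratio of 0.60, against 0.73 over all genes tested. Without the reads under 17 nt, an alternative added after the data were seen, 15 members were higher and 119 lower.

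Some hairpins held many dsRNA reads of 26 nt or longer. MIR4228, inside the annotated transcript AT1G09915, had 331 reads in rdr6 dsRNA, 1935 in Col-0 2X and 299 in Col-0 1X, of which 155, 612 and 257 were of 26 nt or longer, against 21 in rdr6 and 26 in Col-0 smRNA. MIR8176, which overlaps a snoRNA, had 258, 714 and 406 dsRNA reads and 2 and 4 smRNA reads. MIR5642a, within the long non-coding RNA AT3G06325, had 1051, 3541 and 853 dsRNA reads of that length among its 2756, 5613 and 1520, and 2667 reads in rdr6 and 2297 in Col-0 smRNA. MIR8175 had 106, 2956 and 312 dsRNA reads, of which 73, 2075 and 240 were antisense. All but MIR8175 thus overlap another annotated RNA of the same strand, and MIR8175, which overlaps no annotated gene, stands out by its antisense reads.

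The hairpins separated by the length of their small RNAs. In Col-0 smRNA, 161 members had most reads at 20 to 22 nt, 86 had most at 23 to 24 nt, 4 had neither and 69 had fewer than 10 reads. Of the 161, 84 belong to conserved families, and of the 86 none does. The median share of antisense reads was 0% in the first class in both smRNA libraries, and 37.1% (rdr6) and 38.7% (Col-0) in the second. Small RNAs of about 24 nt from both strands are known from DICER-LIKE3, which cuts the dsRNA of repeats. In the rdr6 dsRNA comparison 80 of 106 tested members of the first class were lower and 2 higher (median log2 ratio −2.99), and 20 were lower and 17 higher of 66 in the second (median −0.57), where 5.14% of all tested genes were lower and 16.5% higher. In the smRNA libraries 15 of 161 and 1 of 86 were lower in rdr6, with medians of −0.44 and −0.01, where 3.96% of all tested genes were lower. Both classes needed at least 10 reads in Col-0 smRNA, the library the rdr6 smRNA ratio is set against, and no test of a difference between the classes was made.

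**Figure D5:**
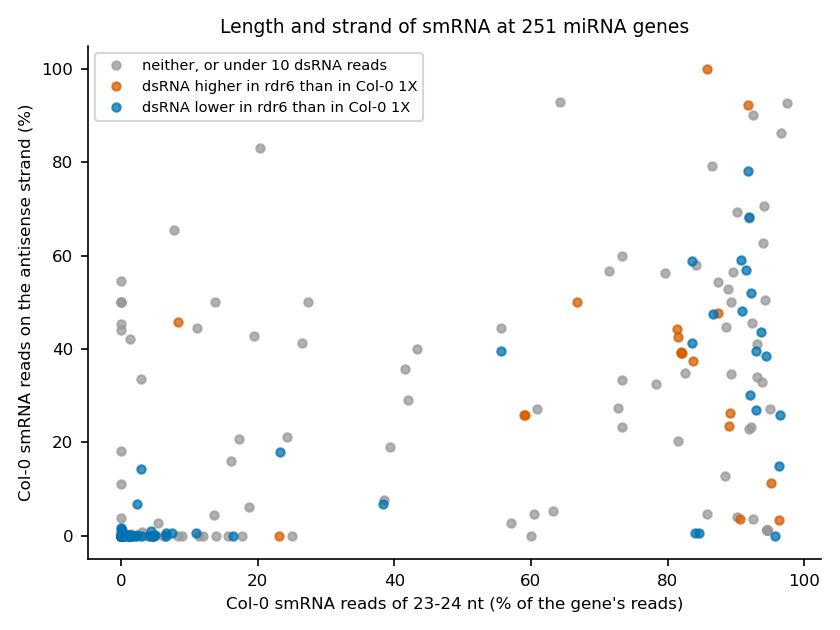
Share of Col-0 smRNA reads of 23 to 24 nt (x axis, percent) against the share of antisense reads (y axis, percent), each point a miRNA gene with at least 10 reads, coloured by its call in dsRNA of rdr6 against Col-0 1X. Most genes lower in rdr6 lie at few 23 to 24 nt reads and few antisense reads. The 161 genes with mostly 20 to 22 nt reads have a median of 0% antisense reads, and the 86 genes with mostly 23 to 24 nt reads have a median of 38.7%.

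Members of the second class had dsRNA on both strands too. MIR8167a, with 6320 reads in rdr6 and 7884 in Col-0 smRNA, had 6001 and 7460 of them at 23 to 24 nt, and its commonest read in Col-0 smRNA was longer than the annotated product and began before it. MIR401, which lies opposite to a pseudogene, had 437 of 511 reads antisense in rdr6 dsRNA, and 2019 of 2188 in rdr6 and 1593 of 1725 in Col-0 smRNA. MIR5635a had 102 of 137 reads antisense in rdr6 dsRNA and 139 of 274 in Col-0 1X. MIR8180 had 4696 reads of 20 to 22 nt in rdr6 dsRNA and 2046 in Col-0 1X, but 351 in rdr6 and 353 in Col-0 smRNA, where 3812 and 3432 of its reads were of 23 to 24 nt. Against the 19 nt product, the commonest reads are given with the bases of the annotated miR8180 in capitals.
MIR8180 in rdr6 dsRNA, Col-0 2X and Col-0 1X: GCGGUGCGGGAGAAGUGCggu
MIR8180 in rdr6 smRNA and Col-0 smRNA: UGCGGUGCGGGAGAAGUGCggugc
The dsRNA read thus began 1 base after the annotated start and the smRNA read at it, and both ran past the annotated end. In 9 members with at least 10 reads, such as MIR5655, MIR8178 and MIR781a, over 90% of the reads matched both strands of the hairpin, so that their strand cannot be told.

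Read positions followed the predicted fold. The reference hairpins, folded with RNAfold, had a median of 73.1% of bases paired. Among members with at least 10 such reads, the reads per paired base exceeded those per unpaired base for 74 of 85 members in rdr6 dsRNA, 83 of 90 in Col-0 2X and 138 of 146 in Col-0 1X for reads of 20 to 25 nt, with median log2 ratios of 0.89, 1.06 and 1.07. For reads of other lengths it held for 55 of 61, 63 of 71 and 56 of 62 members, with medians of 0.72, 0.81 and 0.77. Mature products lie in the stem, so the first set has this pattern by position alone. Of the reads of 17 to 19 nt, 54.9%, 73.1% and 71.3% lay in a product too, so that the second set shares this limit. Where a hairpin has a pair of annotated products (91 members), the one with fewer Col-0 smRNA reads is called the minor arm. For some hairpins, such as MIR447a and MIR780, the product names do not give opposite arms. The minor arm held a median of 2.63% of the product reads in rdr6 dsRNA (29 members), 2.80% in Col-0 2X (34) and 1.52% in Col-0 1X (48). Its median was 4.21% in rdr6 smRNA (67) and 3.85% in Col-0 smRNA (68). Only hairpins with at least 10 product reads in a library enter its median, so the other hairpins of the 91 were not measured there. The medians thus cover different hairpins. For the same hairpins the Col-0 smRNA median was 0.795% against 2.63% in rdr6 dsRNA, and 1.21% against 2.80% in Col-0 2X. It was 1.74% against 1.52% in Col-0 1X. The dsRNA share was the higher one for 12 of 29, 15 of 34 and 20 of 48 hairpins in that order. Arms were ranked by their Col-0 smRNA reads, so the minor arm cannot lead in that library.

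Across members, dsRNA reads of 20 to 25 nt followed the smRNA level of the same genotype. As a description, Spearman's rho was 0.73 over 256 members for rdr6 dsRNA, 0.66 over 254 for Col-0 2X and 0.91 over 259 for Col-0 1X. With dsRNA reads of other lengths rho was 0.53 over 256 members, 0.51 over 256 and 0.60 over 254. Members of a family share reads and both axes share the hairpins' match to several places, so the points are not independent. A further rho took the highest dsRNA count and the highest smRNA count of each family, which can come from different members. For reads of 20 to 25 nt it was 0.67, 0.65 and 0.87 in the same order, each over at least 152 families.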

How the data were processed

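The deposited files hold raw read counts: per the methods and the labels, the authors collapsed Illumina Genome Analyzer II reads into non-redundant sequences with their count, trimmed the 3′ adaptor where it was found and kept the other sequences untrimmed, with a length set by their alignment, and aligned these to the TAIR9 genome with cross_match at up to 6% mismatches, keeping all locations. No count was normalised. Locations were read against the TAIR10.1 RefSeq annotation; in 19785 pairs of locations of one sequence in Col-0 1X, the reference bases differed by no more than a pair of such alignments allows. A read was counted in a gene when its middle base lay in it, at each location, on either strand unless a strand is named, and scaled by the mapped reads of its library. A read that matched both strands of a hairpin was therefore counted once on each. Genes with at least 10 reads in a pair were tested across all annotated genes by the exact one-sided Audic–Claverie test; calls needed a 2-fold difference and p below 0.001. A count of 0 was read as 3 in limits.

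The alternatives changed the locations used, the scaling, the minimum, the fold, the adjustment of p (Benjamini-Hochberg), the strand and the read lengths. Hairpins were folded with RNAfold 2.7.2, and Python 3.11.15 with numpy 2.4.6, pandas 2.3.3, scipy 1.17.1 and matplotlib 3.10.9 was used; the test was tested on simulated data. The members, lists and role groups were chosen with earlier results of these data known. Named genes were, for each comparison, the 8 members with the most reads and the 5 largest called ratios each way with at least 50 reads; the 5 with the most dsRNA reads of 26 nt or longer, smRNA reads of 23 to 24 nt or antisense reads; and the members that target the silencing machinery or are cut by DCL4. Others named, among them MIR158b, MIR164c, MIR167d, MIR172c, MIR399a to MIR399c, MIR399f, MIR472, MIR781a, MIR851, MIR852, MIR5020b, MIR5655 and MIR8178, and the shares without MIR8180, were chosen after their values were seen. Depth was 8193747 to 13773151 mapped reads; reads carry no molecular identifiers, so p-values cover counting error only.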

Additional observations from a re-analysis of the deposited data

How the results depend on the processing

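With 1 library a condition no library could be left out, and the fold changes rest on counting error alone. No paired analysis was possible because each group holds 1 library. The 0 higher calls in rdr6 smRNA stood under all 13 alternatives. The main comparisons tested 180 members in rdr6 dsRNA, 269 in rdr6 smRNA and 186 in Col-0 2X, and some alternatives tested fewer. Counts of calls moved by over 1.5 times in the following. With reads of 1 location only, 1 member was higher and 36 lower of 69 tested in rdr6 dsRNA. Their median log2 ratio was −2.34, against −2.14 in the main comparison. In rdr6 smRNA 11 of 193 were then lower, and in Col-0 2X 7 of 75 were higher and 34 lower. With non-redundant sequences in place of reads, 6 were higher and 64 lower of 154 tested in rdr6 dsRNA, and 2 of 256 lower in rdr6 smRNA. Reads divided among locations left 5 lower of 265 tested in rdr6 smRNA. At 4-fold, 8 were higher in rdr6 dsRNA and 2 lower in rdr6 smRNA. Totals without rRNA and tRNA left 10 higher in rdr6 dsRNA, and a median ratio set to 0 left 11. A minimum of 50 reads left 63 lower of 107 tested in rdr6 dsRNA. Without reads of 20 to 25 nt, 38 were higher and 11 lower in rdr6 dsRNA, and 32 higher and 27 lower in Col-0 2X (26 and 27 without reads under 17 nt too). With only those reads, 10 were higher in Col-0 2X. Against Col-0 2X in place of Col-0 1X, 66 were higher and 29 lower in rdr6 dsRNA (66 and 27 without reads under 17 nt).

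Of the single-member ratios recomputed under the alternatives, which do not include that of MIR862, these changed sign. Against Col-0 2X the log2 ratio of rdr6 dsRNA was 3.97 for MIR156a, 4.0 for MIR156b, 3.94 for MIR156c, 4.49 for MIR156d, 4.0 for MIR156e and for MIR156f, 4.6 for MIR156j, 4.81 for MIR157a, 0.50 for MIR158a, 0.11 for MIR162a, 0.000802 for MIR162b, 1.02 for MIR166a, 1.57 for MIR167a, 1.52 for MIR167b, 3.52 for MIR168a, 3.82 for MIR168b, 1.16 for MIR403, −1.80 for MIR4228, −0.28 for MIR5642a and −0.28 for MIR5642b. Without reads of 20 to 25 nt it was 1.19 for MIR156j, 1.68 for MIR168a, 1.97 for MIR168b and 1.19 for MIR839. The log2 ratio of Col-0 2X to Col-0 1X without those reads was 2.64 for MIR158a, 4.12 for MIR162a and for MIR162b, 2.34 for MIR172a, 2.90 for MIR822, 4.48 for MIR839 and 0.73 for MIR869. With reads of 1 location MIR156j came to 0.55 in rdr6 dsRNA and 0.38 in Col-0 2X, and MIR8180 to −0.19 in rdr6 dsRNA. By non-redundant sequences MIR401 came to −0.22 and MIR8180 to −0.19 in rdr6 dsRNA, and MIR5020b to 0.19 in rdr6 smRNA. For the members named, 1275 other values kept their side of the threshold, 102 fell short of it and 6 passed it. The causes were not tested.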
